A study of Mus musculus with 21 samples.

Results

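The comparison described here set follicular B cells of Bach2-knockout (Bach2KO) mice against follicular B cells of wild-type (WT) mice after culture with an antibody fragment that binds IgM. Its members are all arrays whose titles name these cells, 3 for each genotype, which makes 6 of the 21 arrays of the series. Both groups were cultured for 24 h with 10 ug/ml of an anti-mouse IgM (Fab') preparation, which engages the B-cell receptor, so both carry the stimulus and no array of unstimulated cells enters the comparison. For the Bach2KO cells the labels name no change to Bach1. They name no sort gate, strain, sex or age, and they do not say whether Bach2 was absent from all cells of the mice. The label protocol speaks of amplifying a single RNA sample of each genotype, and no label ties the replicates to different animals, so the p-values may measure spread that is partly technical. The rest of the series held common lymphoid progenitors (CLPs) of WT mice and of mice deficient in Bach1 and Bach2 (DD), and multipotent progenitors (MPPs) given a vector with GFP or with Bach2 and GFP.

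Bach2 is a transcription repressor of the basic leucine zipper family that pairs with small Maf proteins and binds DNA elements built around an AP-1-like core. In mature B cells it is known for holding back Prdm1, which encodes Blimp-1, the repressor that drives plasma-cell differentiation, and so for leaving time for class switching and the germinal-centre response. Its relative Bach1 represses Hmox1 and other genes of heme breakdown and oxidative defence until heme binds and inactivates it, and Bach2 can bind the same kind of element.

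The element can be read in the promoters of genes that changed in these cells. The core TGAGTCA was searched on both strands (TGACTCA is its reading on the other strand), as was a longer element that is TGC followed directly by the core in its TGAGTCA reading (TGC before TGACTCA, as in Osgin1 below, was not counted). Promoters were RefSeq entries of build GRCm38.p6 that run from 250 bases before to 50 bases after the start of transcription. The first 250 bases of 5 promoters are printed below 5′ to 3′ on the strand of the gene, with the core in capitals. They were chosen among named genes that passed the test and hold the core, 3 that were higher and 2 that were lower in Bach2KO cells. Srxn1, which encodes the antioxidant enzyme sulfiredoxin, lies downstream of chr2:152105274-152105523 (+), Osgin1, an oxidative-stress-induced gene, of chr8:119436897-119437146 (+), and Rsad2, which encodes the antiviral protein viperin, of chr12:26456453-26456702 (-). Il5ra, which encodes the interleukin-5 receptor alpha chain, lies downstream of chr6:106749038-106749287 (-) and Nedd4, which encodes an E3 ubiquitin ligase, of chr9:72693048-72693297 (+).
Srxn1: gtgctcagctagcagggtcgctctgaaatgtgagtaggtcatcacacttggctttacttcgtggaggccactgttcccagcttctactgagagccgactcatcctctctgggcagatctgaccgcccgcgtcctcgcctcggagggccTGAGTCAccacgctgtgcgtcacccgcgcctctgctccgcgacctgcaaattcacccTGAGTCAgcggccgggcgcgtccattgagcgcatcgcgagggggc
Osgin1: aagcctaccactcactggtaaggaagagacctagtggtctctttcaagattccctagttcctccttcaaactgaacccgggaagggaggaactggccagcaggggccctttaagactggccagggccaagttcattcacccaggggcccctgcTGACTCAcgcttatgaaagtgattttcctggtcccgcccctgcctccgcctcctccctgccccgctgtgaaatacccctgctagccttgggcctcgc
Rsad2: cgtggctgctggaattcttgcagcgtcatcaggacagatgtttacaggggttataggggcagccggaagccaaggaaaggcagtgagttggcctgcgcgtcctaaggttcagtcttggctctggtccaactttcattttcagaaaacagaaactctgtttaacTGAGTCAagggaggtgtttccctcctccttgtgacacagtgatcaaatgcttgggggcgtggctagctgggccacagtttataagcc
Il5ra: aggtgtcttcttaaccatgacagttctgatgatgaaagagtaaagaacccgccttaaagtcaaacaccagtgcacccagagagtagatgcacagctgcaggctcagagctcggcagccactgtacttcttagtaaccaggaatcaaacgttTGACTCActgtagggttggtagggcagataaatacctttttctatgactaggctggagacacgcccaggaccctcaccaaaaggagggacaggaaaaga
Nedd4: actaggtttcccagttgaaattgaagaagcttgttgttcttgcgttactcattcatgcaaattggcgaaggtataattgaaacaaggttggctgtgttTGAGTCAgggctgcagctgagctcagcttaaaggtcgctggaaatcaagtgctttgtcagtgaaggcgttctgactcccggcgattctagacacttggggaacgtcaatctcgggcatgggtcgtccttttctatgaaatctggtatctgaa
Srxn1 held the core in 2 places, starting 102 and 45 bases before the transcription start. The core began 97 bases before the start in Osgin1, 87 in Rsad2, 99 in Il5ra and 152 in Nedd4.

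The core was found in 481 of 10522 tested genes with a promoter entry (4.571%), a gene being counted where any of its entries held it. Counted by single entries, 1709 of all 32851 promoters held it (5.202%). Among genes higher in Bach2KO cells it was found in 46 of 592 (7.77%) and among genes lower in 19 of 452 (4.204%). The longer element was found in 51 single promoter entries (0.1552%) and in 13 of the 10522 tested genes (0.1236%). It was found in 2 of the higher genes (0.3378%) and in 1 of the lower genes (0.2212%). Of the 20 genes with the largest rises 13 had a promoter entry, and 0 of these held the core in the 300 bases searched, against 3 of the 16 with an entry among the 20 largest falls. These are counts of letters, not of bound sites, and no test was made on them.

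Some arrays stood apart from their groups. Bach2KO replicate 2 was the dimmest, with a 75th percentile of signal, the value every level below is set to, of 97.3 where the others had 194.5 to 357.5, and 50.9% to 58.8% of spots were well above background. Arrays of the same replicate number deviated together from their group means, with correlations of 0.85, 0.71 and 0.54 for numbers 1, 2 and 3. Replicate 1 lay on slide 1 and replicates 2 and 3 on slide 2, and Xist, the RNA of X-chromosome inactivation, stood at -1.49 and -2.32 in replicate 1 (WT and Bach2KO) and at -6.42 to -5.43 in the others, while a second Xist probe read -1.38 and -2.49 in replicate 1 and -6.76 to -4.03 in the others. The Y-linked gene Eif2s3y was at 2.89 and 3.02 in replicate 1 (WT and Bach2KO) and at 3.28 to 3.76 in the others, so Y-linked RNA was present on all 6 arrays. Other Y-linked probes were lower in replicate 1. Kdm5d read -5.66 and -4.77 against -3.69 to -2.75 in the others. The 2 Uty probes read -6.88 and -7.14 against -3.44 to -2.98, and -4.42 and -3.34 against -2.54 to -1.76. Ddx3y was lower in WT replicate 1 only, at 0.16 against 1.40 to 1.57. What set replicate 1 apart was not tested. Levels are on a log2 scale on which 0 is the 75th percentile of the array. The fit compared each Bach2KO array with the WT array of its number, and differences are Bach2KO minus WT on the log2 scale ± SE, with p-values adjusted over all probes. A gene was called where the adjusted p was under 0.05.

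Bach2 itself checks the labels. Its brighter probe read 3.49, 3.06 and 3.55 in WT replicates 1, 2 and 3, and -0.07, -1.01 and -0.09 in the Bach2KO replicates. All Bach2KO arrays were below all WT arrays, by 3.76 ± 0.21, a 13.5-fold fall (adjusted p = 6.75e-05). A dimmer probe was well above background on 3 WT arrays and on 0 Bach2KO arrays, at -0.06 ± 0.24 and -5.78 ± 1.15 (SD, n = 3), which makes its level at least 19.9-fold lower. Such a bound is set against the lowest signal that counts as above background, or the dim probe's own where higher, and is used below wherever a gene was at background on all arrays of a group. A probe was tested only if well above background on at least 3 of the 6 arrays. Genes at background throughout 1 group thus passed only through the other group, and the filter itself favoured a difference in that direction. Their adjusted p-values are no independent support. Bach1 read 1.25, 0.94 and 0.90 in WT and 1.81, 1.27 and 1.60 in Bach2KO cells. Its groups did not overlap, and the difference of 0.53 ± 0.20 did not pass (adjusted p = 0.134).

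Of 30769 probes tested, 2518 were called (8.18%), with 1477 higher (4.8%) and 1041 lower (3.38%) in Bach2KO cells. Counted as genes, each read by its brightest probe, 1318 of 13116 were called (10.0%). Of these, 752 were higher (5.73%) and 566 lower (4.32%), and 639 of the former (4.87%) and 353 of the latter (2.69%) differed at least 2-fold. The 2 groups of arrays did not overlap in 2443 genes (18.6%). The median difference over all genes was -0.15, and it was 0.02 where the 75th percentile was taken over the probes detected on all 6 arrays. That scaling moved the share of higher calls among called probes from 58.7% to 79.8%. It was 69.0% with quantile normalization and 37.2% with normexp background correction, so the balance of rises and falls depended on the scaling. Without the replicate block 317 probes (1.03%) and 217 genes (1.65%) were called.

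**Figure D1:**
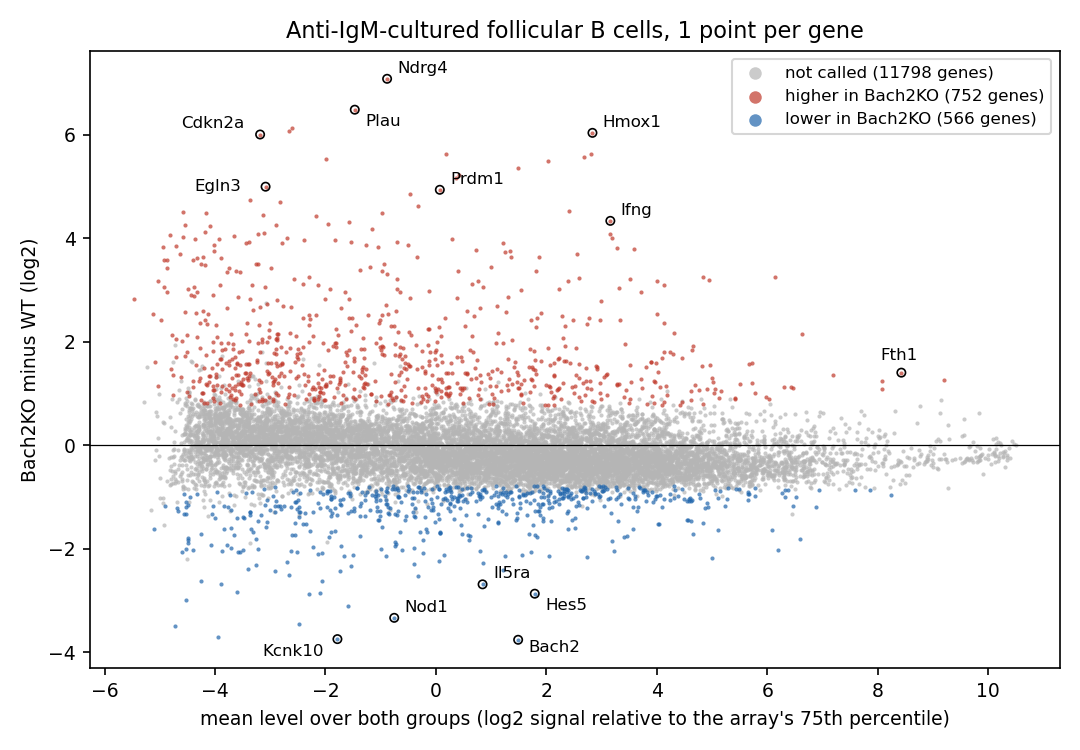
Each point is a gene, with its mean level over both groups on the horizontal axis and the difference Bach2KO minus WT on the vertical axis, both in log2 units; red genes were called higher (752), blue ones lower (566) and grey ones were not called (11798). The rises reached further from 0 than the falls, up to Ndrg4 at 7.08 against Bach2 at -3.76, and open circles mark named genes.

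The largest rises held genes of several kinds. Ndrg4, a member of the N-myc downregulated gene family, read -4.32, -5.33 and -3.62 in WT and 2.46, 3.15 and 2.36 in Bach2KO cells. It rose by 7.08 ± 0.41 (adjusted p = 7.86e-05), and 2 of the 3 WT arrays were above background. Plau, which encodes the secreted protease urokinase, was at background on all WT arrays (-5.07, -4.42 and -4.64) and read 2.03, 1.53 and 1.75 in Bach2KO cells. It was at least 83.6-fold higher, with an adjusted p of 2.22e-05. Ptgir, the prostacyclin receptor, rose from -5.67 ± 1.23 to 0.45 ± 0.63 (SD, n = 3), with 1 WT array above background. Every array of the Bach2KO group was above every WT array for each of these genes.

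Signalling and surface genes followed. Rgs16, which encodes a regulator that turns off G-protein signalling, read -0.07, -0.25 and -0.02 in WT and 5.55, 5.89 and 4.95 in Bach2KO cells, a 47.7-fold rise (adjusted p = 3.62e-05). Il2rb, the beta chain shared by the receptors of interleukins 2 and 15, was at -2.65, -2.56 and -2.68 in WT and at 2.07, 1.87 and 2.03 in Bach2KO cells. The SD was 0.06 in WT and 0.10 in Bach2KO cells, and the rise was 24.6-fold (adjusted p = 2.97e-05). Fcer1g, the signalling gamma chain of Fc receptors, read 0.14, 0.12 and 0.15 in WT and 4.95, 4.68 and 4.38 in Bach2KO cells, a 23.1-fold rise. Lilrb4a and Lilr4b, inhibitory receptors of the leukocyte immunoglobulin-like family, rose 49.3-fold and 49.1-fold. They are close copies of each other, and whether their probes tell them apart was not tested. Ccl1, a chemokine, rose from -2.22 ± 0.78 to 2.95 ± 0.80 (SD, n = 3).

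Also among the 20 largest rises were Serpinb6b (a protease inhibitor, 44.9-fold), S100a6 (a calcium-binding protein, 40.9-fold) and Rbm47 (an RNA-binding protein, 37.5-fold). Mocos, which encodes an enzyme that activates molybdenum cofactor enzymes, was at least 12.3-fold higher, and Cavin3, a coat protein of caveolae, at least 17.6-fold. Hmox1, Prdm1, Cdkn2a, Cdkn2b and Egln3 are described with their groups. All 20 were called without the replicate block and without each replicate in turn, and 6 of them were not above background on any WT array. They were chosen as called in these same arrays, as were the 20 falls below, so these repeated calls are no independent check. The fit without replicate 1 also pooled all variances into one.

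The largest falls after Bach2 were smaller. Kcnk10, which encodes a potassium channel, read 0.61, -0.18 and -0.17 in WT and -3.40, -3.63 and -3.94 in Bach2KO cells, a 13.4-fold fall (adjusted p = 6.78e-05) with 2 of 3 Bach2KO arrays above background. Nod1, a cytosolic sensor of bacterial peptidoglycan, read 1.45, 0.86 and 0.43 in WT and -2.40, -2.48 and -2.38 in Bach2KO cells, a 10.1-fold fall (adjusted p = 1.68e-04). Hes5, a target gene of Notch signalling, read 3.99, 2.54 and 3.14 in WT and 0.45, 0.12 and 0.51 in Bach2KO cells, a 7.29-fold fall. The groups were apart in all 3 genes, and the WT arrays spread more than the Bach2KO arrays for Hes5 and Nod1.

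Il5ra, whose promoter is printed above, read 2.54, 1.84 and 2.18 in WT and -0.54, -0.67 and -0.29 in Bach2KO cells. It fell 6.43-fold (adjusted p = 2.82e-04), with no overlap of the groups. Ell3, an elongation factor of RNA polymerase II, fell 5.77-fold (adjusted p = 9.26e-04) and Lpar2, a lysophosphatidic acid receptor, 6.16-fold (adjusted p = 0.0012), with 2 Bach2KO arrays above background and 1 of its 2 probes called. A further 5 falls ended at background on all Bach2KO arrays, and their bounds were low. Igf2bp3, an RNA-binding protein of fetal cells, was at least 4.85-fold lower, Grm6 at least 3.50-fold, Plpp3 at least 2.68-fold, the atypical chemokine receptor Ackr3 at least 2.62-fold and Nedd4 at least 2.53-fold.

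Scimp, an adaptor of MHC class II signalling, read -0.27, -1.04 and -0.94 in WT and -5.03, -3.75 and -3.81 in Bach2KO cells, where 1 array was above background. Its fall was 10.9-fold (adjusted p = 0.00144). Kcnk5, Cd70 (the ligand of CD27) and Klf12 fell 8.65-fold, 5.70-fold and 5.39-fold, and in each of them 2 Bach2KO arrays were above background and replicate 2 was the lowest (-5.49, -5.61 and -5.58). The rest of the 20 were Slc9b2 and Cables1 (7.30-fold and 7.27-fold, each above background on 2 Bach2KO arrays), Soga3 (7.10-fold, above background on 1 Bach2KO array and with overlapping groups) and Sema3b (by 2.43 on the log2 scale). Of the 20 falls, 14 were called without the replicate block and 19 without each replicate in turn. Soga3 was the exception without replicate 3, and with normexp its difference was -0.57 (adjusted p = 0.0583).

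Counts for the lists and markers below stand beside 10.0% of all genes called (5.73% higher and 4.32% lower), or 1.65% without the block. Counts of members above and below 0 stand beside 5054 above and 8062 below over all 13116 genes, not beside equal parts. Of 28 listed genes of heme breakdown, iron handling and antioxidant defence 25 were tested. Of these, 10 rose and 15 did not pass, 15 lay above 0 and 10 below, and the median difference of the list was 0.50 against -0.15 over all genes. Hmox1, which encodes heme oxygenase-1, read -0.22, -0.06 and -0.27 in WT and 6.00, 5.94 and 5.61 in Bach2KO cells. Its arrays were tight within each group and far apart between them, a 65.6-fold rise (adjusted p = 2.18e-05). Srxn1, whose promoter is printed above, read -3.76, -2.64 and -3.27 in WT and 1.86, 0.83 and 1.09 in Bach2KO cells, a 22.4-fold rise (adjusted p = 2.90e-04). Nqo1, a quinone reductase, read -0.48, -1.36 and -0.90 in WT and 2.55, 1.90 and 2.18 in Bach2KO cells, an 8.71-fold rise. For both enzymes the groups were apart on all arrays.

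Me1, the malic enzyme that makes NADPH, was at background on all WT arrays and was at least 2.89-fold higher in Bach2KO cells, with means of -6.66 ± 0.20 and -3.08 ± 0.08 (SD, n = 3). The smaller rises were in Fth1 (the ferritin heavy chain, 2.64-fold), Slc48a1 (a heme transporter, 2.50-fold), Osgin1 (2.04-fold), Gclm (a subunit of the enzyme that starts glutathione synthesis, 1.91-fold), Txnrd1 (thioredoxin reductase, 1.86-fold) and Gstm1 (a glutathione transferase with close copies, 1.78-fold, called by 1 of its 2 probes). Their adjusted p ranged from 0.00568 in Slc48a1 to 0.0444 in Gstm1. Of the 8 higher genes with a promoter entry, 3 held the core. Without the block 4 of the 25 were called, and 7, 5 and 4 were called without replicate 1, 2 or 3.

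Among genes of the plasma-cell switch 10 of the 18 tested of 20 listed rose and 8 did not pass, with a median of 0.93. Prdm1, which encodes Blimp-1, read -3.35, -2.26 and -1.59 in WT and 2.49, 2.27 and 2.86 in Bach2KO cells. The Bach2KO arrays lay close together and above every WT array, a 30.6-fold rise (adjusted p = 8.28e-05). Jchain, the chain that joins polymeric antibodies, read -1.09, -0.23 and -0.84 in WT and 2.74, 2.80 and 2.60 in Bach2KO cells, a 10.8-fold rise (adjusted p = 1.14e-04). Slpi, a secreted protease inhibitor, rose 15.1-fold and Ly6c1, a surface protein found on plasma cells, 9.50-fold. Ly6c1 has a close copy, Ly6c2, that its probes may also read.

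Ell2, an elongation factor that favours the secreted form of antibody transcripts, rose 3.81-fold, and Mzb1, a chaperone of antibody assembly, 3.03-fold. Xbp1, the transcription factor that builds the secretory apparatus, read 5.93, 5.31 and 5.31 in WT and 6.87, 5.94 and 6.55 in Bach2KO cells, where each number rose and the gain was 1.92-fold (adjusted p = 0.0345). Cd28, Cd93 and Creld2 rose 2.65-fold, 2.28-fold and 1.89-fold. Sdc1, which encodes the plasma-cell surface marker CD138, read 0.48, -0.54 and -0.66 in WT and 1.13, -1.23 and 0.19 in Bach2KO cells, and its difference of 0.27 ± 0.31 did not pass (adjusted p = 0.588). Its replicate 2 was lower and its replicates 1 and 3 were higher in Bach2KO cells. Calls numbered 5 without the block and 8, 5 and 7 without replicate 1, 2 or 3.

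Of 22 tested endoplasmic reticulum genes of secretion and the unfolded-protein response 5 rose and 17 did not pass, although 21 lay above 0, and the median was 0.54. Sdf2l1, a chaperone cofactor, rose 2.55-fold (adjusted p = 0.0101), Manf, a secreted stress protein, 2.37-fold, Hsp90b1, the chaperone GRP94, 2.17-fold, Pdia4, a disulfide isomerase, 2.02-fold, and Calr, the chaperone calreticulin, 1.85-fold. The rise was smallest in replicate 2 for these genes, except in Pdia4, where replicate 1 rose least. With quantile normalization 3 of the 22 were called. limma called 0 of the 22 without the block (7 at an unadjusted p under 0.05) and 0 without replicate 3 (8 at an unadjusted p under 0.05), against 4 and 3 without replicates 1 and 2.

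Of 22 tested transcription factors of the B lineage 8 fell, 1 rose and 13 did not pass. The median was -0.45, with 17 below 0 and 5 above. Bcl11a, needed for lymphoid development, read 4.89, 4.02 and 4.11 in WT and 3.03, 1.97 and 2.74 in Bach2KO cells, a 3.39-fold fall (adjusted p = 0.00255). Pax5, the factor that holds B-cell identity and that Blimp-1 represses, read -0.07, -0.90 and -0.50 in WT and -1.23, -1.55 and -1.85 in Bach2KO cells, a 2.08-fold fall (adjusted p = 0.0256). The groups were apart in both, by less in Pax5.

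Klf2, a factor of quiescence and trafficking, fell 2.71-fold, Klf3 2.47-fold and Pou2f2, which encodes the octamer-binding factor Oct-2, 2.39-fold. Ebf1, an early B-cell specification factor, fell 1.97-fold, Tcf3, which encodes the E2A proteins, 1.85-fold and Ikzf1, which encodes Ikaros, 1.79-fold, called by 1 of its 2 probes. Zbtb32, a zinc-finger repressor linked to plasma cells and memory B cells, was the member that rose, 2.27-fold (adjusted p = 0.0425). limma called 0 of the 22 without the block (9 at an unadjusted p under 0.05), and 5, 2 and 3 without replicate 1, 2 or 3. With the scaling over detected probes the list's median was -0.28 and 4 members were called lower, and with quantile normalization -0.28 and 5.

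Of 24 tested genes of the B-cell receptor and its co-receptors 7 fell and 17 did not pass. The median was -0.35, with 18 below 0 and 6 above. Cr2, which encodes the complement receptor CD21, read 3.04, 2.68 and 2.56 in WT and 0.83, 0.38 and 0.89 in Bach2KO cells. That is a 4.17-fold fall (adjusted p = 0.00115) with well separated arrays. Cd24a, a surface glycoprotein of maturing B cells, fell 3.27-fold, Syk, the kinase next to the receptor, 2.86-fold, and Ms4a1, which encodes CD20, 2.25-fold. Siglecg and Lyn, which dampen receptor signals, fell 1.91-fold and 1.78-fold, and Cd79b, a signalling chain of the receptor, 1.81-fold. Its partner Cd79a read 2.71 ± 0.12 in WT and 2.64 ± 0.26 in Bach2KO cells (SD, n = 3) and did not pass the test. Cr2 was called without the block, 1 of the 24, and 4, 3 and 4 members were called without replicate 1, 2 or 3. By scaling, the list's median ran from -0.42 with normexp to -0.13 with quantile normalization, with 9 and 3 members called lower.

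**Figure D2:**
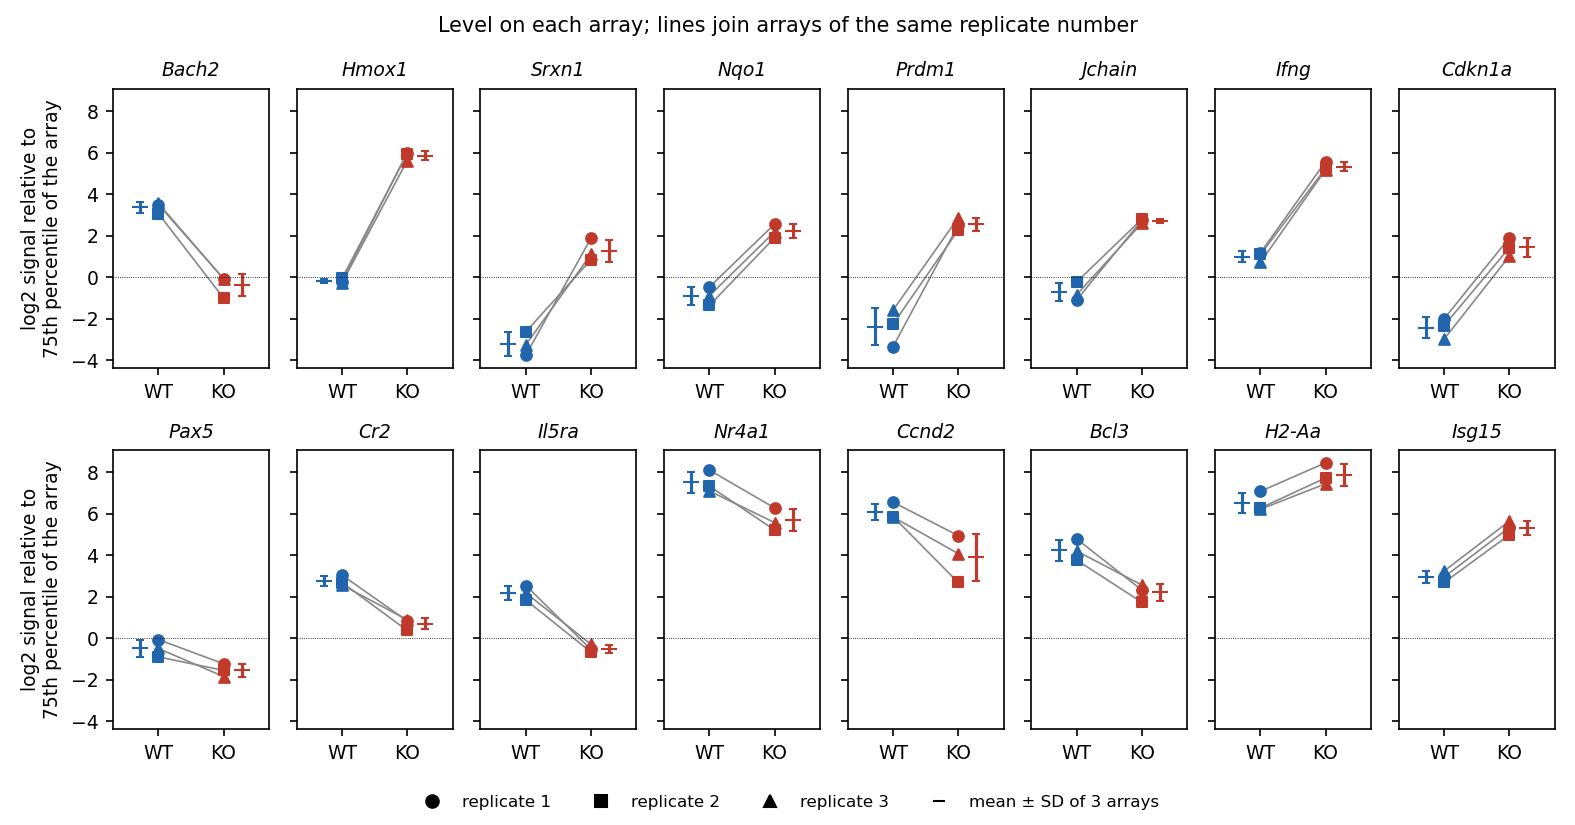
Level of 16 genes on each array, in log2 units above or below the 75th percentile of that array, with lines joining arrays of the same replicate number and bars for the mean ± SD of 3 arrays. The 16 genes were chosen among those called in these same arrays. Their groups do not overlap, as in 18.6% of all genes, which is no result about genes so chosen. The group means differ by 6.04 in Hmox1 and by 1.06 in Pax5. Ccnd2 has its widest spread in the Bach2KO group, where replicate 2 is at 2.69.

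Activation and costimulatory genes went both ways after the 24 h of culture, with no unstimulated cells to compare. Among 23 tested genes of activation and costimulation 5 rose, 3 fell and 15 did not pass. Nr4a1, an immediate-early gene that follows the strength of receptor signalling, read 8.10, 7.33 and 7.10 in WT and 6.28, 5.22 and 5.57 in Bach2KO cells, a 3.53-fold fall (adjusted p = 0.00184). Egr3, another immediate-early factor, fell 2.54-fold and Icosl, which encodes the ligand of ICOS on helper T cells, 3.67-fold. The chemokines Ccl3 and Ccl4 rose 8.50-fold and 4.44-fold. Ccl3 read 2.27, 3.18 and 2.29 in WT and 5.80, 4.93 and 6.27 in Bach2KO cells, with the smallest gap in replicate 2. Nfil3, a basic leucine zipper factor, rose 3.56-fold, Cd69, an early activation marker, 2.14-fold and Pdcd1lg2, which encodes the inhibitory ligand PD-L2, 2.06-fold. Calls numbered 2 without the block and 9, 5 and 5 without replicate 1, 2 or 3.

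Of 17 tested genes of NF-kB and its feedback 4 fell and 13 did not pass, and 15 lay below 0. Bcl3, an atypical IkB protein, read 4.78, 3.76 and 4.20 in WT and 2.32, 1.73 and 2.56 in Bach2KO cells, a 4.11-fold fall (adjusted p = 0.0015). Nfkbid, which encodes the atypical inhibitor IkBNS, fell 4.04-fold, Tnfaip3, which encodes the deubiquitinase A20, 2.29-fold, and Nfkbia, which encodes IkB-alpha, 1.99-fold. limma called 0 without the block (4 at an unadjusted p under 0.05), and 3, 2 and 3 without replicate 1, 2 or 3. The list's median was -0.34, and -0.17 with the scaling over detected probes, where 3 members were called.

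Relatives and partners of Bach2 changed among the AP-1, Maf and Nrf factors. Of 21 tested, 7 rose, Bach2 fell and 13 did not pass. Atf3, a stress-induced factor, read -1.65, -1.75 and -3.10 in WT and 2.83, 0.63 and 0.99 in Bach2KO cells, a 12.5-fold rise (adjusted p = 0.00102). Maf, a large Maf factor, rose 15.7-fold from 2 of 3 WT arrays above background, with Bach2KO replicate 2 at 1.62 and the others at -0.58 and -0.55. Maff, a small Maf protein, rose 2.65-fold, the Fos relatives Fosl1 and Fosl2 5.72-fold and 3.92-fold, and Nfe2, a partner of small Mafs, 3.02-fold from 2 WT arrays above background. Batf3 was at background on all WT arrays and was at least 3.24-fold higher. The calls numbered 2 without the block and 8, 7 and 7 without replicate 1, 2 or 3.

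Some inhibitors of cyclin-dependent kinases had large rises. In the list of CDK inhibitor and p53-pathway genes 4 of 20 rose, 2 fell and 14 did not pass. The median was -0.13, with 8 above 0 and 12 below. The inhibitor genes Cdkn1b, Cdkn1c, Cdkn2c and Cdkn2d were among those that did not pass. Cdkn2a, the locus of p16 and p19Arf, was at background on all WT arrays (-7.13, -6.12 and -5.31) and read -0.99, 0.16 and 0.28 in Bach2KO cells, at least 21.6-fold higher (adjusted p = 2.18e-05). Its neighbour Cdkn2b, which encodes p15, was at background on all WT arrays too (-5.44, -6.19 and -5.46) and read 0.12, 0.57 and 0.40, at least 31.6-fold higher (adjusted p = 2.97e-05). Cdkn1a, which encodes p21, read -2.01, -2.33 and -2.99 in WT and 1.89, 1.41 and 1.00 in Bach2KO cells, a 14.7-fold rise (adjusted p = 5.26e-05). These 3 genes were called in every setting that left out a replicate or the block. As they were singled out as called in these same arrays, the repeated calls are no independent check. Cdkn2a and Cdkn2b passed the filter only through the Bach2KO arrays. Gadd45a, a growth-arrest gene, rose 2.66-fold, while Gadd45b fell 2.42-fold and Phlda3 1.91-fold. Without the block 3 members were called.

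Of 26 tested genes of DNA replication and mitosis 6 rose, Ccnd2 fell and 19 did not pass, with a median of -0.02, which was above 0 under the other 3 scalings. Ccnd2, the D-type cyclin of activated B cells, read 6.55, 5.86 and 5.84 in WT and 4.95, 2.69 and 4.08 in Bach2KO cells, a 4.53-fold fall (adjusted p = 0.00504). Ccnb2, a B-type cyclin, read -0.56, -0.77 and -0.08 in WT and 1.23, 0.83 and 1.65 in Bach2KO cells, a 3.27-fold rise (adjusted p = 0.0017). Plk1, a mitotic kinase, rose 2.34-fold, Mki67, a marker of cycling cells, 2.25-fold, Ccna2 2.10-fold, Cdk1 1.94-fold and Birc5 1.81-fold. limma called 0 of the 26 without the block (4 at an unadjusted p under 0.05), and 7, 4 and 2 without replicate 1, 2 or 3. Without replicate 1 the 7 were 3 higher and 4 lower. With normexp 7 were called higher and 8 lower.

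Of 24 cytokine genes 12 could be tested, of which 6 rose, 1 fell and 5 did not pass. Ifng, which encodes interferon-gamma, read 1.18, 1.09 and 0.71 in WT and 5.57, 5.24 and 5.18 in Bach2KO cells, a 20.2-fold rise (adjusted p = 3.62e-05) with tight groups. Il6 read -4.22, -4.54 and -4.31 in WT, where 2 arrays were above background, and -1.51, -2.57 and -2.03 in Bach2KO cells, a 4.98-fold rise (adjusted p = 7.14e-04). Il10 was at background on all WT arrays and at least 3.49-fold higher in Bach2KO cells. Csf1, the macrophage growth factor, rose 2.86-fold, Lta, which encodes lymphotoxin-alpha, 2.77-fold and Tgfb1 1.71-fold. Il18 fell by 2.14 on the log2 scale (adjusted p = 0.00115), with 2 Bach2KO arrays above background. Calls numbered 3 without the block and 6, 7 and 5 without replicate 1, 2 or 3.

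Of 19 interferon-response genes tested of 22 listed, 10 rose and 9 did not pass, 18 lay above 0 and the median was 1.43, though 0.48 with normexp. Oasl1, an antiviral gene, read 1.74, 1.53 and 2.46 in WT and 4.84, 5.03 and 5.47 in Bach2KO cells, a 9.23-fold rise (adjusted p = 1.12e-04). Isg15, a ubiquitin-like protein, read 2.95, 2.69 and 3.24 in WT and 5.33, 4.98 and 5.64 in Bach2KO cells, a 5.12-fold rise (adjusted p = 3.12e-04). Both genes rose in every replicate by more than the spread within a group.

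Rsad2, whose promoter is printed above, was at background on all WT arrays and at least 4.71-fold higher in Bach2KO cells. Ifih1, the RNA sensor MDA5, rose 5.95-fold, and Ifit1, of which 1 WT array was above background, 5.07-fold. With normexp the Ifit1 difference was 0.48 on the log2 scale and did not pass (adjusted p = 0.136), and with a floor on dim signals it was 1.55 against 2.34. Gbp2 and Gbp3, guanylate-binding proteins induced by interferon-gamma, rose 4.37-fold and 2.70-fold, Oasl2 3.65-fold, Ifit3 3.58-fold and Irf7, the factor that amplifies type I interferon, 3.44-fold, the last 2 from 2 WT arrays above background. Of the 10 higher genes, all with a promoter entry, 2 held the core. The count was 6 without the block and 10, 10 and 9 without replicate 1, 2 or 3.

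Of 17 tested genes of MHC class II and presentation 6 rose and 11 did not pass. The median was 0.74, with 12 above 0 and 5 below. H2-DMb1, a subunit of the peptide-loading chaperone, read 4.92, 4.88 and 4.88 in WT and 6.35, 6.71 and 6.32 in Bach2KO cells, a 2.96-fold rise (adjusted p = 0.0032). H2-Aa, a chain of the class II molecule, read 7.08, 6.27 and 6.21 in WT and 8.45, 7.72 and 7.45 in Bach2KO cells, a 2.55-fold rise, with groups apart. H2-Eb1, H2-DMb2 and H2-Ob rose 2.38-fold, 2.31-fold and 1.97-fold, H2-Ob by 1 of its 2 probes, and close copies among these genes may share signal. Ciita, the master activator of class II genes, stood at -5.26 and -4.28 in replicate 1 (WT and Bach2KO) and at 0.60 to 2.89 in replicates 2 and 3. It rose within each number, 2.81-fold (adjusted p = 0.0171), while the groups overlapped, and in WT replicate 1 it was not above background. limma called 0 of the 17 without the block (5 at an unadjusted p under 0.05), and 7, 2 and 3 without replicate 1, 2 or 3.

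**Figure D3:**
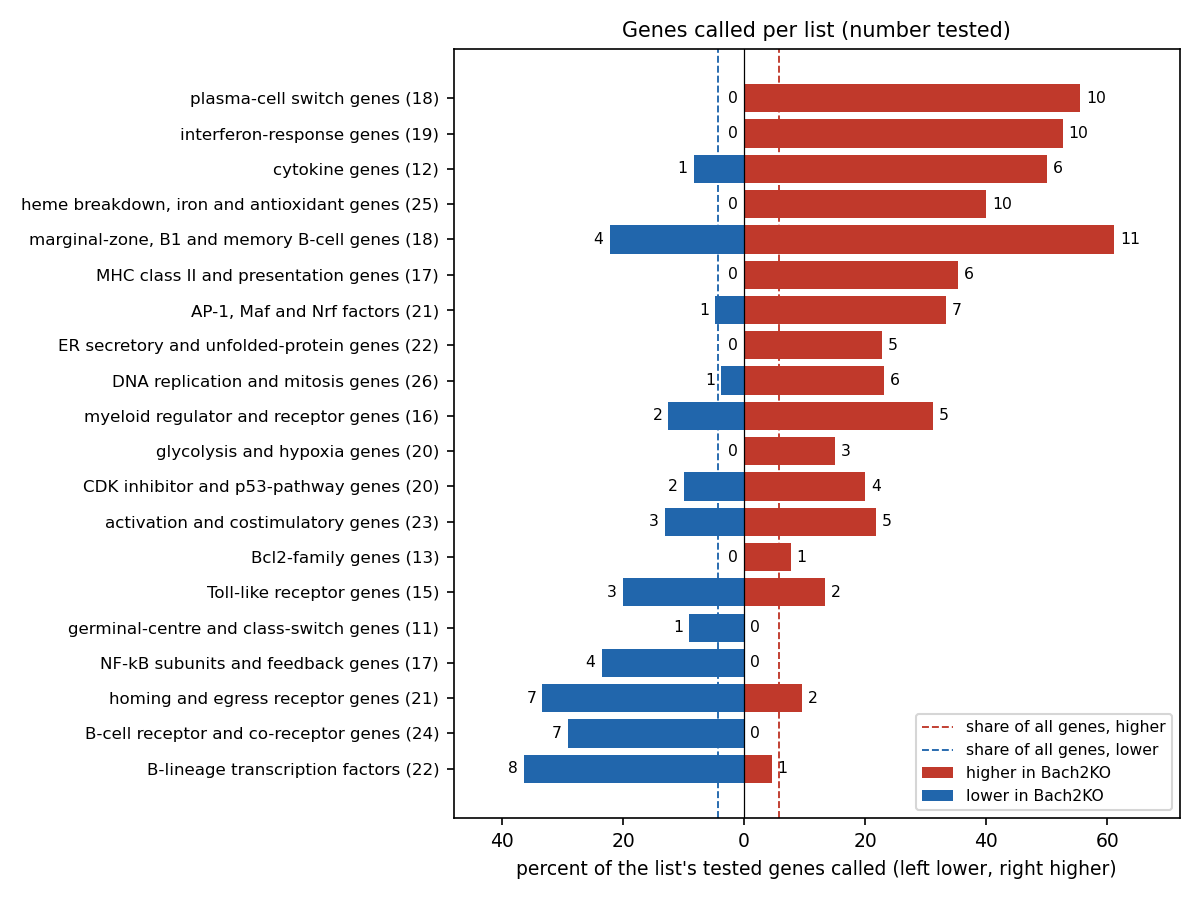
Bars give the percent of each list's tested genes called higher (right, red) or lower (left, blue) in Bach2KO cells, with the number of genes at each bar end and the number tested after the name. Dashed lines give the shares over all genes, 5.73% higher and 4.32% lower; the longest red bar is that of the marginal-zone, B1 and memory list (11 of 18) and the longest blue bar that of the B-lineage factors (8 of 22).

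Genes that mark other B-cell states changed in most cases, with 11 of 18 tested higher, 4 lower and 3 that did not pass. Cd9, a tetraspanin of marginal-zone, B1 and plasma cells, read 2.76, 1.83 and 2.11 in WT and 5.42, 5.13 and 5.03 in Bach2KO cells, a 7.75-fold rise (adjusted p = 1.64e-04). Bhlhe41, a factor of B1 cells, rose 5.39-fold, Spn, which encodes CD43, 3.00-fold and S1pr3, a sphingosine-1-phosphate receptor of marginal-zone cells, 3.06-fold. Cd5, a surface marker of B1a cells that T cells share, rose by 1.63 ± 0.21 (log2). Nt5e, the ecto-nucleotidase CD73 of memory cells, rose 2.58-fold from 2 WT arrays above background, Anxa2 2.35-fold, Plac8 2.18-fold and Vim 1.92-fold. Marginal-zone genes were also among the falls. Cr2 is given above, Dtx1, a Notch target, fell 2.73-fold, Cd1d1, which presents lipids, 2.12-fold by 1 of its 2 probes, and Cd38 1.98-fold. Calls numbered 3 without the block, 13, 6 and 8 without replicate 1, 2 or 3, and 9 with quantile normalization.

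Among 21 tested receptors of homing and egress 2 rose, 7 fell and 12 did not pass. Ccr9, the gut-homing chemokine receptor, read -2.70, -3.62 and -3.31 in WT and 0.87, 0.64 and 0.49 in Bach2KO cells, a 14.7-fold rise (adjusted p = 6.78e-05). Ccr7, which guides cells to the T-cell zone, read 7.33, 6.83 and 6.59 in WT and 5.76, 4.92 and 5.14 in Bach2KO cells, a 3.12-fold fall (adjusted p = 0.00258). The groups were apart in both receptors. Ccr6 fell 2.30-fold, Cxcr5, which guides cells to follicles, 2.10-fold, S1pr4 2.50-fold, Gpr132 2.12-fold and the integrin chain Itga4 1.93-fold, by 1 of its 2 probes. The calls were 2 without the block, 10, 5 and 4 without replicate 1, 2 or 3, and 5 with quantile normalization.

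The Toll-like receptor, glycolysis, germinal-centre and Bcl2-family lists held 5, 3, 1 and 1 called genes. These were 33.3%, 15%, 9.09% and 7.69% of the genes tested, against 10.0% over all genes. The germinal-centre and Bcl2-family lists thus lay near the share over all genes, and their called genes are no result about the lists. Of 15 tested Toll-like receptor genes 2 rose and 3 fell: Ly96, which encodes the MD-2 partner of Tlr4, rose 3.97-fold and Cd14 2.96-fold, while Tlr1 fell 4.70-fold (adjusted p = 7.14e-04), Tlr6 1.89-fold and Ly86 1.81-fold. In the list of 20 glycolysis and hypoxia genes 3 rose, none of them a glycolytic enzyme. Egln3, an oxygen-sensing prolyl hydroxylase, was at least 16.3-fold higher, the growth factor Vegfa rose 3.37-fold and the lactate exporter Slc16a3 2.12-fold. Of 11 tested germinal-centre and class-switch genes Fas, a death receptor, fell 2.28-fold (adjusted p = 0.0136). Of 13 tested Bcl2-family genes Bcl2l11, which encodes the pro-death protein Bim, rose 1.74-fold (adjusted p = 0.0451). Of these 4 lists 1, 1, 0 and 0 genes were called by limma without the block (5, 3, 2 and 3 at an unadjusted p under 0.05), and Bcl2l11 was lost without any single replicate.

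Myeloid genes rose in part, and markers of blood cells other than B cells rose beside them. Of 16 tested regulators and receptors of myeloid cells 5 rose, 2 fell and 9 did not pass. Cebpd, a basic leucine zipper factor, was at background on all WT arrays and at least 5.77-fold higher, Cebpb read -0.83, -0.50 and -1.44 in WT and 0.94, 0.82 and 0.90 in Bach2KO cells, a 3.50-fold rise (adjusted p = 0.00367), and the integrin chain Itgax rose 3.72-fold. Lyz2, which encodes lysozyme, rose 6.99-fold with 2 WT arrays above background. Csf2rb, the shared beta chain of the receptors for GM-CSF, interleukin 3 and interleukin 5, fell 2.75-fold, by 1 of its 2 probes, and Il6ra 2.31-fold. The calls were 2 without the block and 7, 5 and 6 without replicate 1, 2 or 3.

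Of 10 granulocyte markers 7 were tested and 5 rose. S100a8, which encodes a calprotectin subunit, read -2.89, 1.06 and -0.22 in WT and 0.58, 3.21 and 3.33 in Bach2KO cells. Replicate 1 was low in both genotypes and the groups overlapped, while each number rose, 8.31-fold in all (adjusted p = 7.68e-04). Ngp, S100a9, Ltf and Camp, all products of granulocyte granules or cytosol, rose 9.56-fold, 9.41-fold, 8.11-fold and 7.19-fold, Ngp and Ltf from 2 WT arrays above background. The differences of Elane and Csf3r were 0.39 ± 0.27 (with no value on Bach2KO replicate 2) and 0.34 ± 0.24 and did not pass. The summed level of the list, in multiples of the array's 75th percentile, was 66.6 to 206 in WT and 127 to 289 in Bach2KO cells, most of it from Csf3r. limma called 0 of the 7 without the block (5 at an unadjusted p under 0.05) and 5 without each replicate.

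Of 8 erythroid or platelet markers 3 passed the filter on low values, of which all were above background on the 3 Bach2KO arrays but only Hba-a1 on the 3 WT arrays, so for Alas2 and Pf4 the filter itself favoured a rise. The differences called were Alas2 (heme synthesis of red cells) 15.2-fold higher from 1 WT array above background, Hba-a1 (alpha globin) 13.3-fold higher and Pf4 (platelet factor 4) at least 4.02-fold higher. Their summed level was 0.287 to 1.40 in WT and 3.82 to 16.5 in Bach2KO cells, while Gp9, Itga2b and Klf1 were at background on every array. Without replicates 1, 2 and 3 the calls were 3, 2 and 1, and without the block 1. With the scaling over detected probes 1 was called, and the list's median was 3.64 with quantile normalization, where the adjusted p of Alas2, Hba-a1 and Pf4 was 0.0782, 0.0763 and 0.0725. Among 7 tested monocyte or macrophage markers Lyz2, Cd14 and Ms4a7 rose, the latter 6.56-fold. The list's summed level was 12.4 to 29.5 in WT and 13.9 to 55.2 in Bach2KO cells, and C1qa, Fcgr1 and Mertk were at background throughout. Of 10 tested T-cell markers Thy1, Cd8b1, Cd3g and Cd5 rose, Thy1 3.33-fold, while the differences of Cd3e, Cd4 and Cd8a were 0.19 ± 0.24, 0.21 ± 0.21 and 0.12 ± 0.20, and the summed level was 89.1 to 142 in WT and 84.5 to 105 in Bach2KO cells.

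Among 6 tested dendritic markers Batf3, Itgax and Zbtb46 rose and Flt3 fell 3.20-fold, the last 2 by 1 of 2 probes each, and Cd209a, Clec9a and Xcr1 were at background on every array. Of 4 tested NK-cell markers Gzma rose 2.27-fold, and Ncr1, Klrb1c, Klrd1, Klrk1 and Gzmb were at background on every array. The single tested markers of mast cells or basophils (Prss34) and of stromal or endothelial cells (Pecam1) differed by 0.22 ± 0.28 and -0.04 ± 0.21. The part of such cells in the myeloid, interferon, cytokine and other results above was not tested. In RNA of a whole culture, fewer cells of a type and less RNA per cell cannot be told apart. The 10 markers of the labelled cell type were above background on all 6 arrays. The summed B-cell markers stood at 720 to 1161 in WT and 790 to 913 in Bach2KO cells. The sum was lower in Bach2KO replicate 1 (1161 in WT, 913 in Bach2KO) and higher in replicates 2 (724 and 844) and 3 (720 and 790). Yet 9 of the 10 markers lay below 0 and 1 above, with a median of -0.67, so the sum does not stand for most of them. Of the 10, 5 fell (Cr2, Ms4a1, Ebf1, Pax5 and Cd79b), of which 2 were called with quantile normalization.

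**Figure D4:**
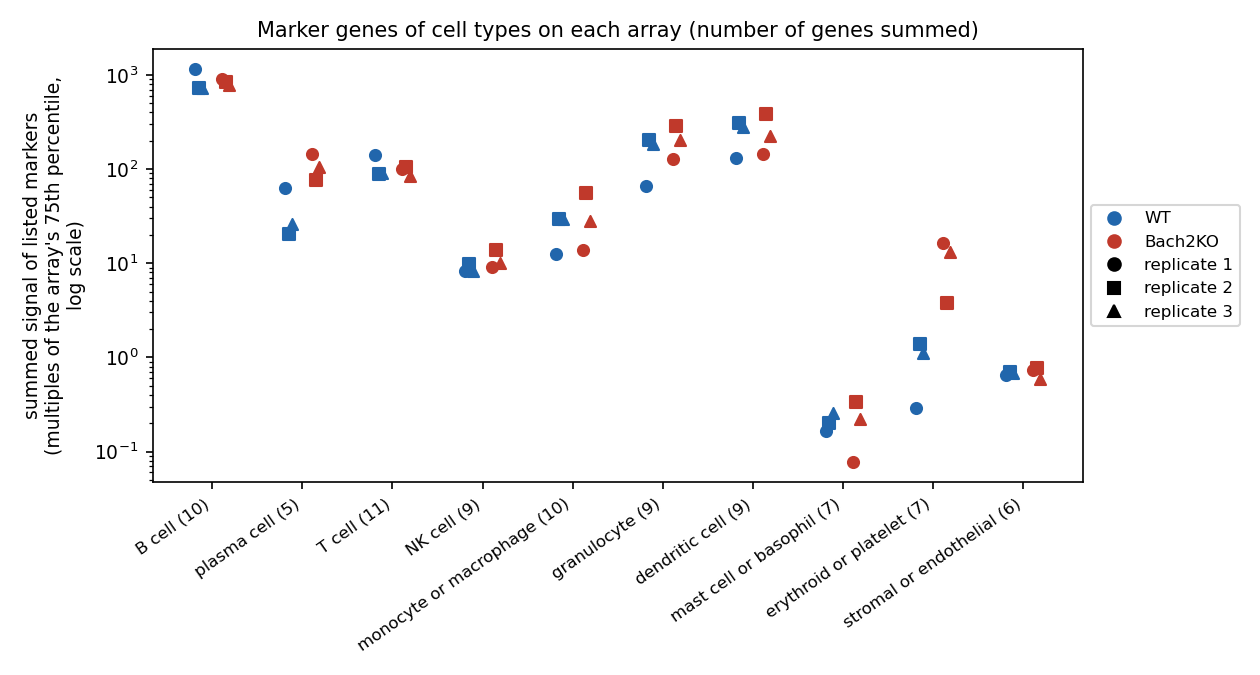
Summed signal of the marker genes of each cell type on each array, in multiples of the array's 75th percentile on a log scale, with WT in blue, Bach2KO in red and the replicate number as the symbol. Erythroid or platelet markers are the list whose Bach2KO arrays (3.82 to 16.5) lie furthest above the WT arrays (0.287 to 1.40), and replicate 1 is the lowest WT array for granulocyte, monocyte and dendritic markers.

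The effect of losing Bach2 in follicular B cells was set against that of losing Bach1 and Bach2 in CLPs, in a fit that tests the difference of the effects. The CLP arrays were brighter, with 75th percentiles of 2858 to 5127 against 97.3 to 357.5. On them 66.8% to 81.5% of spots were well above background, against 50.9% to 58.8%. Cell type, the anti-IgM culture, the loss of Bach1 and array brightness differed together and cannot be told apart in this comparison. It was called for 229 of 30769 probes (0.744%) and for 152 of 13116 genes (1.16%). Of the 1318 genes called in follicular B cells 141 were among them, 121 with the higher effect in follicular B cells and 20 with the lower, although genes chosen for a follicular B-cell difference are no independent set for that count. Without replicate 2 limma called 0 probes (3158 at an unadjusted p under 0.05), without replicates 1 and 3 it called 45 and 8, and without the block 77.

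Named genes show how the effects compare. The Hmox1 difference was 6.04 ± 0.20 in follicular B cells and 1.66 ± 0.25 in CLPs, and it was -1.08 ± 0.31 between Bach2-vector and control-vector MPPs. That of Cdkn1a was 3.88 ± 0.20 and 0.02 ± 0.19. Ccr9 differed by 3.88 ± 0.22 in follicular B cells and by -1.02 ± 0.21 in CLPs. For these 3 genes the difference of the effects passed, with adjusted p of 0.0042, 0.0027 and 0.0023. For Prdm1, at 4.93 ± 0.30 against 0.66 ± 0.65, it did not (adjusted p = 0.0799). Kcnk10 differed by -3.74 ± 0.21 in follicular B cells and -2.83 ± 0.35 in CLPs, and Gclm 0.94 ± 0.20 and 1.91 ± 0.24, with adjusted p of 0.33 and 0.17 for the difference.

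**Figure D5:**
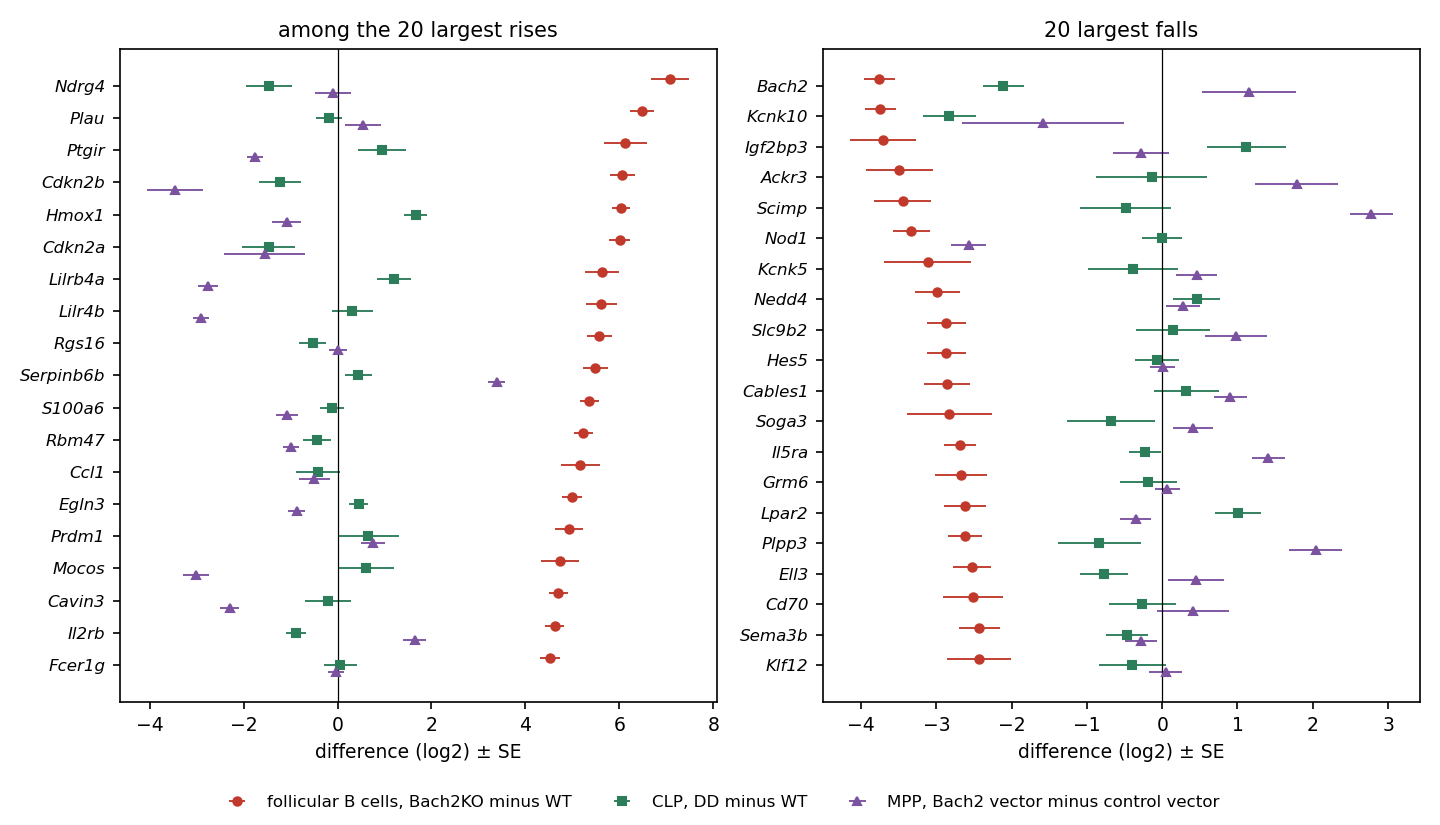
Difference (log2) ± SE of genes among the 20 largest rises and of the 20 largest falls in follicular B cells (red circles, Bach2KO minus WT), with the same probes in CLPs (green squares, DD minus WT) and MPPs (purple triangles, Bach2 vector minus control vector). The genes were chosen by the red values, and those at background in a group are drawn at their measured values; Hmox1 at 1.66 has the highest CLP value among the rises shown and Kcnk10 at -2.83 the lowest among the falls.

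Probes without a gene name also changed. Of 13670 such probes tested, 540 were higher and 258 lower. A class of 6999 tested probes is named on the array by a genomic region of build mm9, and 275 of these were higher and 90 lower. Over all 30769 probes tested 4.8% were higher and 3.38% lower. Unnamed probes and region probes both had smaller shares in each direction, so their counts are no result about these classes. The calls fell in 266 regions, of which 61 held 2 or more called probes. In chr6:145936225-145965575, 3 of 6 probes were called, and the probe with the largest rise read -7.24, -4.30 and -5.28 in WT and -0.48, 1.22 and -0.40 in Bach2KO cells, at least 26.5-fold higher. In chr5:92556322-92558910 all 3 probes were called, and the leading one was at background on all WT arrays and at least 6.68-fold higher. In chr6:31170350-31287353 all 3 probes were called, and 1 stood at -1.83 ± 0.20 in WT and 1.71 ± 0.42 (SD, n = 3) in Bach2KO cells, an 11.6-fold rise (adjusted p = 1.41e-04). Whether these regions lie in a gene was not analysed here, since no annotation of mm9 was used.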

How the data were processed

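All 6 arrays were 1-colour Agilent mouse arrays. Per the file headers, signals were read with Feature Extraction 10.7.3.1 (the submitters' processing notes name 9.1), and the authors deposited intensity values that are background-subtracted and detrended within each array but not scaled between arrays. The deposited value table holds the same intensities. The array's region probes are named on mm9.

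Levels were log2(processed signal) minus the array's 75th percentile over its 55681 non-control probes. A probe was tested if well above background on at least 3 of the 6 arrays with at least 2 complete pairs. limma 3.58.1 (R 4.3.3; lmFit and eBayes) fitted genotype with the replicate number as a block, with p-values adjusted by Benjamini-Hochberg over all 30769 probes tested and a threshold of 0.05. The block was used because the comparison was defined with arrays paired by replicate number. Same-numbered arrays deviated together (r = 0.85, 0.71 and 0.54). For other pairs r was at most 0.50, in WT replicate 3 with Bach2KO replicate 2, which is close to the 0.54 of number 3. The labels give the numbers but not what they share. Of the probes, 26413 were named through RefSeq accessions (20018 symbols) and 29268 were not. Outlier spots were left out, 0 spots were saturated, and 0 pairs of arrays held identical values. The number of arrays limits the precision.

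Named genes were Bach2 and Bach1, the 20 largest rises and 20 largest falls (called, at least 2-fold, same direction in all 3 pairs, without clone-type names), every called gene of 20 lists, and the 4 genes of each list with the smallest p. The members and lists were chosen with earlier results of these data known. The effect in CLPs was compared through the interaction in 1 fit over both experiments. The fit was tested on simulated data. Alternatives changed the block, background, scaling, filter, variance model, probe choice and replicates. Some named genes are not reported here.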

Additional observations from a re-analysis of the deposited data

How the results depend on the processing

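The main counts were 2518 probes, 1845 probes at least 2-fold, 1318 genes and 134 list genes. The pairing set them most. Without the replicate block they were 317, 317, 217 and 34, with the slide as the block 1267, 1211 and 750 (list genes within 1.5 times), and with no filter on dim probes 582, 582, 319 and 51. Quantile normalization gave 1049, 1013 and 644, and the percentile over probes detected on all arrays 1245, 1194 and 756. Background correction by normexp, which used median signals since mean signals were not in the files used, gave 779 probes at least 2-fold and 2060 genes. Requiring signal on all 6 arrays gave 4555 probes and 2431 genes, a variance trend 6031 probes, 3291 genes and 205 list genes, and the best probe per gene 1076 at least 2-fold and 2943 genes. Without 1 replicate the counts ran from 859 to 2543 probes, from 859 to 2543 at least 2-fold, from 539 to 1200 genes and from 78 to 116 list genes. The test of the difference from CLPs called 229 probes, 77 without the block, and 0 to 45 without 1 replicate. The cause of these changes was not tested. No named gene changed sign in the settings run, but the splits of 2 lists turned: replication and mitosis from 6 higher and 1 lower to 3 and 4 without replicate 1, and germinal-centre genes from 0 and 1 to 1 and 0 without replicate 2. With normexp, and without replicate 1, the fit pooled all variances into one (total degrees of freedom 61538 and 30500), so small p-values there are no evidence of stability. Of 165 called named genes, 106 were no longer called without the block, 87 with no filter, 57 without replicate 2, 57 without replicate 3 and 27 without replicate 1. Bach2 was called in each setting run. Of the 1318 genes, 640 kept their call with quantile normalization and 750 with the other percentile. Genes at background in 1 group have bounds only.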
